A study of Mus musculus with 5 samples.

Results

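Macrophages take up dying cells through surface receptors, some of which bind the corpse directly and some through soluble bridging proteins. The 8 genes described here encode such proteins, and they were found by symbol among the 22815 rows of a table of RNA levels in mouse peritoneal cells. The direct receptors were Timd4 and Stab1. The TAM receptor kinases were Mertk, Axl and Tyro3, with the bridging ligands Gas6 and Pros1. Mfge8, a bridge to integrins, was the last. All 8 symbols were present, and 7 of them passed the filter for testing, at least 1 FPKM in at least 1 library (FPKM, fragments per transcript length and library depth). Tyro3 did not.

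The cells were washed out of the peritoneum of mice aged 8 weeks and their RNA was sequenced by Smart-seq2, a low-input method. Wild-type (WT) C57BL/6 mice given phosphate-buffered saline (PBS) gave 1 library, WT mice given pristane gave 2, and Irf8-deficient mice given pristane, labelled Irf8KO, gave 2. Pristane is a hydrocarbon oil that causes lasting sterile inflammation of the peritoneum. Irf8 is a transcription factor of monocyte and dendritic cell development. No group held Irf8-deficient mice without pristane. The sources used here give neither the Irf8 allele, nor the time after pristane, nor whether libraries came from separate animals. P-values therefore measure only the spread between these libraries, part of which may be technical. The sex transcripts given below differed between the WT pristane libraries, so the spread of that pair is not technical alone.

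Irf8 stood at 32.4 FPKM with PBS, 63.3 and 48.7 FPKM in WT pristane, and 120.5 and 59.4 FPKM in the Irf8KO-labelled libraries, so its RNA gave no check of that label. The female transcript Xist and the Y-linked Eif2s3y differed between the WT pristane libraries: Xist was listed at 0 in replicate 1 and stood at 8.81 FPKM in replicate 2, and Eif2s3y stood at 12.9 FPKM and was listed at 0. The PBS library had Xist at 43.5 FPKM and Eif2s3y listed at 0, and both Irf8KO-labelled libraries had Xist near 0.015 FPKM and Eif2s3y at 23.2 and 25.6 FPKM. Sex and group therefore cannot be told apart in the comparison of Irf8KO pristane with PBS, and WT pristane holds both patterns. The spread of the WT pristane pair, which enters the error of every comparison, thus includes a difference of sex pattern. From the steps between the lowest values, the libraries held an estimated 2301000 to 4963000 assigned fragments. A single fragment on 1 kb of transcript was then worth 0.202 to 0.435 FPKM. Neutrophil markers, 11 genes, summed to 163 FPKM with PBS and to 14876 to 46858 FPKM in the pristane libraries, and all values below are levels in such mixed cells.

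Dying cells expose the lipid phosphatidylserine on their outer surface. Tim-4, the product of Timd4, tethers it directly, and resident peritoneal macrophages are known for this receptor. Mertk, Axl and Tyro3 reach it through Gas6, and Mertk and Tyro3 also through protein S (Pros1). Both ligands bind the receptor as well as the lipid. Milk fat globule protein Mfge8 links the lipid to alpha-v integrins, and stabilin-1 (Stab1) is a large scavenger receptor that also binds it. TAM signalling is known to dampen inflammation in macrophages, and interferon is known to raise Axl.

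The promoters of 4 members are shown because the first pair, Timd4 and Stab1, passed the test after pristane, while Axl and Pros1 lay on opposite sides in the pristane groups. Each line gives the 250 bases before the RefSeq start of the gene (GRCm38.p6, gene strand, 5′ to 3′). Capitals mark the matches to the motifs named after them.
Timd4, chr11:46810549-46810798, plus strand: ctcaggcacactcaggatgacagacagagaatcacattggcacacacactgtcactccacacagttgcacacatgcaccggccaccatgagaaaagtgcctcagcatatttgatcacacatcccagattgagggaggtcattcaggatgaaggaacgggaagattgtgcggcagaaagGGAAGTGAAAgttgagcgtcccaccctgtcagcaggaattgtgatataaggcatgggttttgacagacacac
Stab1, chr14:31168642-31168891, minus strand: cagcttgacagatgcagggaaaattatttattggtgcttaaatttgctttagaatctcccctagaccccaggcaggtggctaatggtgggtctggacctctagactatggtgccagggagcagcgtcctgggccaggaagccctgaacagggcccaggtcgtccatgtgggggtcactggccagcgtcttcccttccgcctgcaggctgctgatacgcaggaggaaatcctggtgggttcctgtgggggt
Axl, chr7:25788734-25788983, minus strand: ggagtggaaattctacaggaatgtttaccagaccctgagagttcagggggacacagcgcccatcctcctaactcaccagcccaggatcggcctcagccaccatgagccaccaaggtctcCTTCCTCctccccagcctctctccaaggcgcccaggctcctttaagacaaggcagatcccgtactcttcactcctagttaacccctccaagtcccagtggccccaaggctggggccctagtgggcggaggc
Pros1, chr16:62854057-62854306, plus strand: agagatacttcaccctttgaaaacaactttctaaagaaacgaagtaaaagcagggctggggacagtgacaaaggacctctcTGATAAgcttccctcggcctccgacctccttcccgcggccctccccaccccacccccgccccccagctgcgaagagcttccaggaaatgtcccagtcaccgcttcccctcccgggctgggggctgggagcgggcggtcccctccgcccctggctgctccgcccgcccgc

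Of 7 motifs searched on both strands in all 8 member promoters, the ETS-IRF composite element (GGAA and GAAA with any 2 bases between), the kind of site to which Irf8 binds together with PU.1, was found in Timd4 only, from 72 to 63 bases before the start. Among all 32851 promoter windows of this length 2.3% held it. The PU.1 core GAGGAAG was found in Axl only, on the opposite strand (10.6% of windows). A GATA site, AGATAA or TGATAA, was found in Pros1 only (16.6% of windows). No member held the interferon-stimulated response element core (GAAA and GAAA with any 2 bases between; 2.98% of windows), which can overlap the composite element, or the TATA box TATAAA (12.4%), or the liver X receptor element (2 copies of AGGTCA with any 4 bases between; 0.0152%). The GC box GGGCGG, left in lower case, occurred in 6 of the 8 members, the exceptions being Timd4 and Stab1, and in 32.7% of windows. These are matches of letters within 250 bases and no measure of binding.

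**Figure D1:**
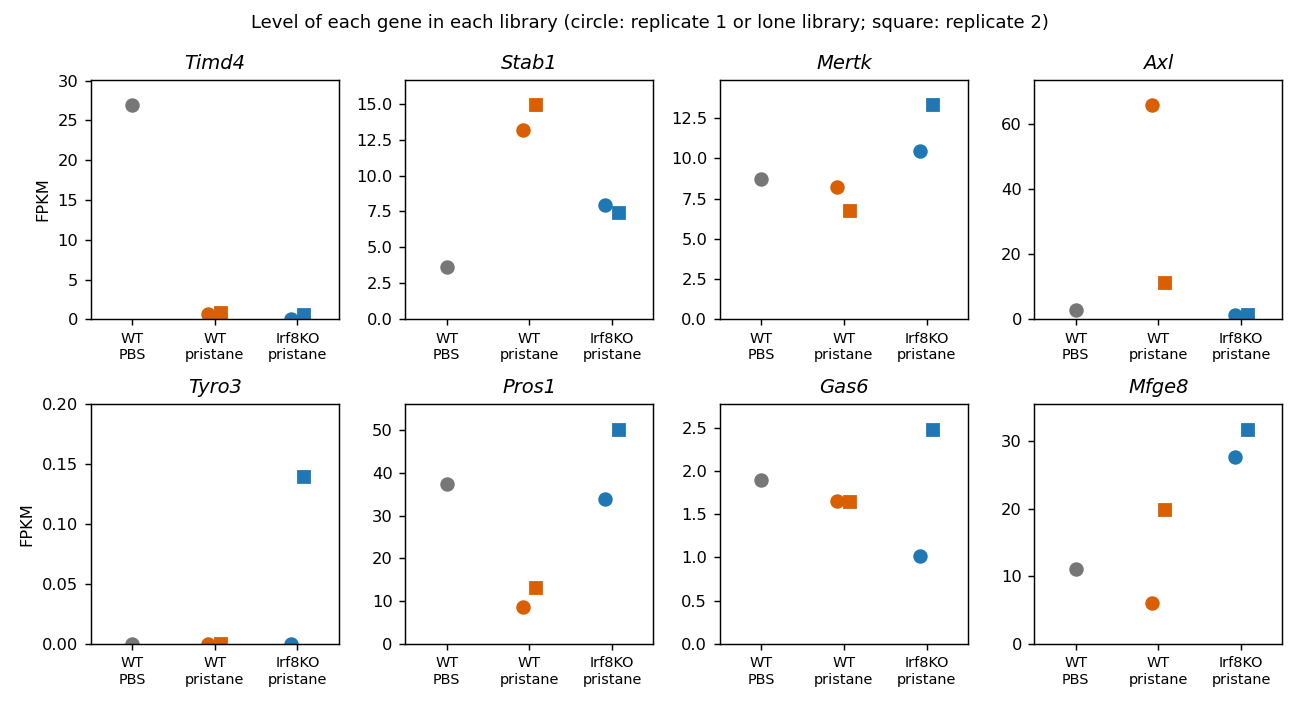
FPKM of each gene (vertical axes, linear, starting at 0) in the 3 groups, with 1 point per library. Timd4 is at 26.9 FPKM with PBS and under 1 in the 4 pristane libraries. Axl is highest in the WT pristane libraries, and Pros1 is lowest there.

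WT pristane against WT PBS asked how the oil changed these transcripts in normal mice. Timd4 fell and Stab1 rose, and the other 5 tested members did not pass the threshold (an adjusted p under 0.05 by limma). That made 1 of 7 higher and 1 of 7 lower, against 10.6% of all 11117 genes tested past the threshold in either direction (5.18% higher, 5.46% lower). At an unadjusted p under 0.05, 3 of 7 members stood beside 33.8% of all genes. The members were chosen with earlier results of these data known, so such shares are a description only. Groups did not overlap for 6 of 7 members, 2 higher and 4 lower, against 81.9% of all genes (37.3% higher, 44.5% lower), with Mfge8 the exception.

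Irf8KO pristane against WT PBS shares its PBS library with that comparison, and Irf8KO against WT pristane shares the pristane libraries with both. It gave 1 of 7 members, again Timd4, against 8.54% of all genes (3.81% higher, 4.72% lower), and 2 of 7 at an unadjusted p under 0.05, against 33.7%. Values of 5 of 7 members did not overlap, 3 higher and 2 lower, against 86.7% (40.7% higher, 46% lower), the exceptions being Gas6 and Pros1. Irf8KO pristane against WT pristane asked what differed in the Irf8KO-labelled libraries under the same oil. By limma 0 of 7 members passed, against 0.027% of all genes, and 3 of 7, Axl, Pros1 and Stab1, had an unadjusted p under 0.05, against 20.6%. Apart from Gas6, all tested members kept the pristane groups apart, 6 of 7 against 53.2% of all genes. Mertk, Pros1 and Mfge8 were the 3 on the higher side (26.1% of all genes), and Timd4, Axl and Stab1 the 3 on the lower side (27.1%).

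For the single PBS library the spread was taken from the pristane pairs. When any 1 of the 4 pristane libraries was left out, 0 genes in the table passed by limma in any comparison, while 1022 to 3984 genes had an unadjusted p under 0.05. Residual degrees of freedom then fell from 2 to 1. The log2 changes stayed near their full values. In WT pristane against PBS they ran from −4.06 to −3.92 for Timd4 and from 1.61 to 1.77 for Stab1. For Timd4 in Irf8KO pristane against PBS they ran from −4.67 to −4.17. Leaving out a library of a group outside the comparison cannot alter a log2 change. The PBS library, on which all these changes rest, could not be left out.

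**Figure D2:**
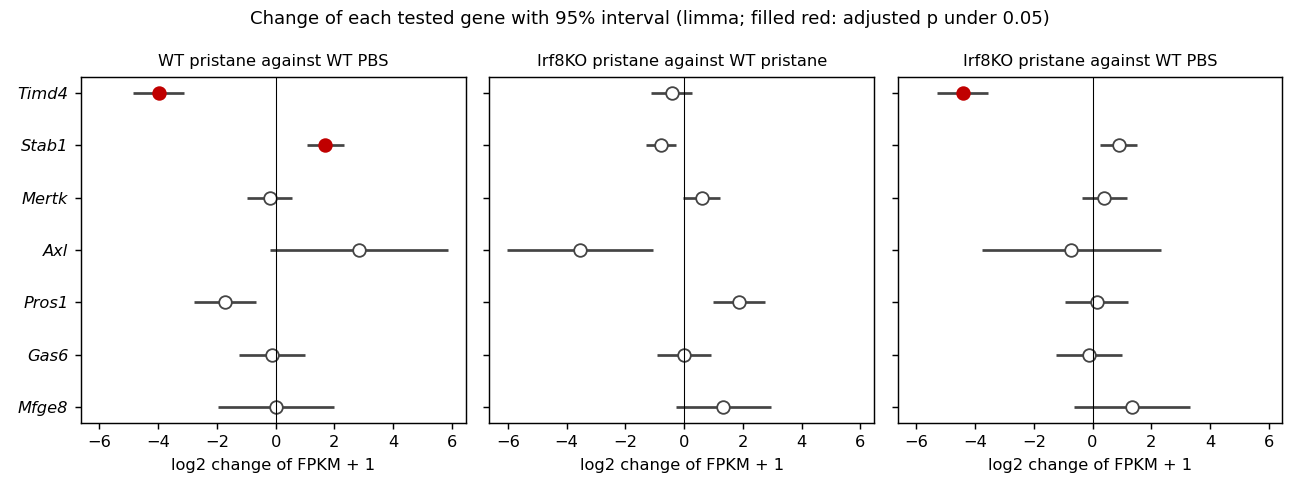
Log2 change of FPKM + 1 (horizontal axes) for the 7 tested genes in 3 comparisons, with 95% intervals from limma. Filled red points, Timd4 in both comparisons with PBS and Stab1 in WT pristane against WT PBS, have an adjusted p under 0.05.

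Timd4 showed the largest fall of the members. Timd4 stood at 26.9 FPKM in the PBS library, at 0.676 and 0.838 FPKM in WT pristane, and at 0.0957 and 0.552 FPKM in the Irf8KO-labelled libraries. Every pristane library lay far under the PBS library. On its single annotated transcript of 2173 bp these values amount to about 134 fragments with PBS, 5.96 and 5.23 in WT pristane, and 1.03 and 3.99 in the Irf8KO-labelled libraries. The WT pristane mean of 0.757 FPKM was 35.5 times lower than the PBS value. The log2 change was −3.99 ± 0.31 (SE; limma adjusted p = 0.0247) in WT pristane and −4.42 ± 0.31 (adjusted p = 0.0274) in the Irf8KO-labelled libraries, both against PBS. Timd4 met the filter of at least 1 FPKM only through the PBS library. A gene admitted in that way can only lie lower with pristane, so the filter fixed the direction of both changes. In bulk RNA, fewer cells of a type and less RNA per cell cannot be told apart. Between the pristane groups the log2 difference for Timd4 was −0.43 ± 0.25, with a 95% interval from −1.13 to 0.28 and an adjusted p of 0.416. With a pseudocount of 0.1 in place of 1, the fall in WT pristane was −4.98 with an adjusted p of 0.0572.

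Markers of large peritoneal macrophages, the resident cells that carry Tim-4, were set beside Timd4. Their 14 genes, Timd4 not among them, summed to 3171 FPKM with PBS, 146 and 231 FPKM in WT pristane, and 1693 and 2897 FPKM in the Irf8KO-labelled libraries. The marker sum was higher in both Irf8KO-labelled libraries than in WT pristane, while Timd4 was under 1 FPKM in all 4 pristane libraries. The markers did not move alike in the Irf8KO-labelled libraries: both lay above the PBS library for 5 of the 14, both below for 6, and on either side for 3. As examples chosen after their values were seen, Gata6, the factor that maintains these cells, stood at 6.13 FPKM with PBS, 1.96 and 1.40 FPKM in WT pristane, and 7.70 and 15.7 FPKM in the Irf8KO-labelled libraries. Cxcl13, a chemokine, stood at 572 FPKM with PBS, 1.26 and 1.49 FPKM in WT pristane, and 32.6 and 48.2 FPKM in the Irf8KO-labelled libraries. Of the 14 markers, Vsig4 and Tgfb2 were listed at 0 in WT pristane replicate 1, Tgfb2 in replicate 2, and none elsewhere. The 14 markers had a median log2 change of −4.20 in WT pristane against PBS, with 10 lower and none higher, and of 0.23 in Irf8KO pristane against PBS, with 2 lower and none higher. Over all genes 5.46% and 4.72% were lower. Between the pristane groups their median was 3.97, with 0 of 14 past the limma threshold and 14 at an unadjusted p under 0.05. For all genes these shares were 0.027% and 20.6%. The 8 B cell markers summed to 2508 FPKM with PBS, to 40.1 and 12.1 FPKM in WT pristane, and to 189 and 100.4 FPKM in the Irf8KO-labelled libraries. None of these was listed at 0 in any library. The part of either cell type in the Timd4 result was not tested.

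**Figure D3:**
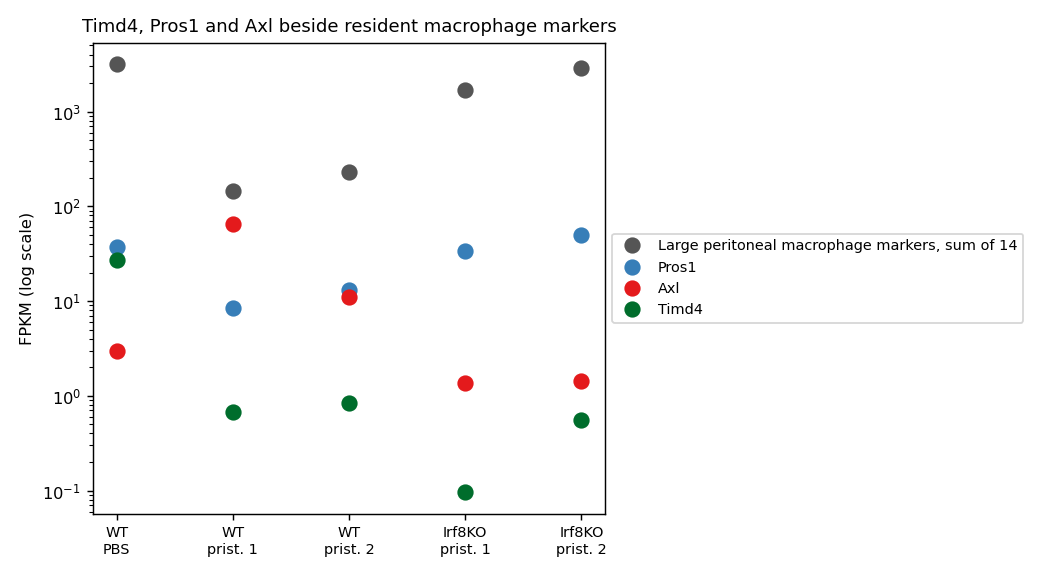
FPKM on a log axis in the 5 libraries for Timd4, Pros1, Axl and the sum of 14 large peritoneal macrophage markers. The sum and Pros1 are lowest in the WT pristane libraries and higher in the Irf8KO-labelled ones, where Timd4 is at 0.0957 and 0.552 FPKM.

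Stab1 moved the other way. Stab1 stood at 3.66 FPKM with PBS, at 13.2 and 14.9 FPKM in WT pristane, and at 7.95 and 7.39 FPKM in the Irf8KO-labelled libraries. The 3 groups did not overlap, with WT pristane highest and PBS lowest. Stab1 rose by 1.69 ± 0.23 (SE) on the log2 scale in WT pristane against PBS (limma adjusted p = 0.0343). Against PBS the change in the Irf8KO-labelled libraries was 0.89 ± 0.23 (adjusted p = 0.0854), and between the pristane groups it was −0.79 ± 0.18 with an interval from −1.31 to −0.28 and an adjusted p of 0.153. Of 5 genes that most macrophages express (Csf1r, Cd68, Cd14, Lgmn and Ctsb, a set chosen after the data were seen), 2 rose in each comparison with PBS and none fell. Of all genes, 5.18% rose in WT and 3.81% in Irf8KO pristane. The 5 genes summed to 881 FPKM with PBS, 4069 and 3816 FPKM in WT pristane, and 3248 and 2931 FPKM in the Irf8KO-labelled libraries, with none listed at 0. The log2 level of Stab1 minus their mean log2 level was −4.97 with PBS, −5.38 and −5.29 in WT pristane, and −5.73 and −5.85 in the Irf8KO-labelled libraries. Relative to these genes Stab1 was higher in no pristane library than with PBS. That was not particular to Stab1, since it held for every other tested member except Axl. Axl was higher only in WT pristane replicate 1, at −3.15 against −5.20 with PBS. The part of macrophage numbers in the Stab1 values was not tested.

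The TAM receptors differed in how far they varied. Mertk, the main TAM receptor of resident macrophages, was the steadiest: Mertk stood at 8.71 FPKM with PBS, 8.24 and 6.70 FPKM in WT pristane, and 10.4 and 13.3 FPKM in the Irf8KO-labelled libraries. The libraries labelled Irf8KO were the highest and WT pristane the lowest. The largest of its 3 log2 differences, between the pristane groups, was 0.60 ± 0.22 (SE; interval −0.02 to 1.22; limma adjusted p = 0.252). In WT pristane against PBS its log2 change was −0.20 ± 0.27 (adjusted p = 0.634).

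Axl varied most of the TAM receptors. It stood at 2.97 FPKM with PBS, at 65.6 and 11.05 FPKM in WT pristane, and at 1.38 and 1.45 FPKM in the Irf8KO-labelled libraries. Both WT pristane libraries lay above all others, and both libraries labelled Irf8KO lay below the PBS library. The WT pristane replicates, which also differed in sex pattern, differed 5.93-fold from each other, against 1.05-fold for the other pair. Sex and other differences between these replicates cannot be told apart. The log2 change of Axl in WT pristane against PBS was 2.83 ± 1.09 (SE; interval −0.20 to 5.87; limma adjusted p = 0.166). For Irf8KO against WT pristane it was −3.55 ± 0.89 (interval −6.03 to −1.07; adjusted p = 0.164). In Irf8KO pristane against PBS it was −0.72 ± 1.09 (interval −3.75 to 2.32; adjusted p = 0.673). No comparison passed, and the size rested on which WT pristane library was used: against PBS the change was 1.60 without replicate 1 and 4.07 without replicate 2. For Irf8KO against WT pristane it was −2.32 and −4.79 in the same order.

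Markers of other myeloid cells were set beside Axl. The 11 markers of small peritoneal macrophages and dendritic cells summed to 204 FPKM with PBS, 77.8 and 150.1 FPKM in WT pristane, and 31.4 FPKM in each Irf8KO-labelled library. Retnla, a secreted protein of alternatively activated macrophages, made up much of the sum with PBS (152.6 FPKM) and in WT pristane replicate 2 (110.0 FPKM), and stood at 16.7 FPKM in replicate 1. The median log2 change of the 11 went the other way from the sum in WT pristane against PBS, at 0.66 with 1 lower and none higher. It was −0.87 between the pristane groups, where 0 of 11 passed by limma and 3 had an unadjusted p under 0.05. Over all genes 5.46% were lower in WT pristane against PBS, and 20.6% had such an unadjusted p between the pristane groups. Itgax, an integrin of dendritic cells and some macrophages, chosen after its values were seen, stood at 34.6 and 8.01 FPKM in WT pristane and at 1.27 to 3.93 FPKM elsewhere. Irf4, Cd226 and Cd209a went the other way in WT pristane. Irf4 stood at 18.1 FPKM with PBS and at 1.62 and 0.850 FPKM in WT pristane, and Cd209a at 20.7 FPKM and at 7.04 and 0.537 FPKM. None of the 11 was listed at 0 in WT libraries, while Cd209a and Clec9a were in Irf8KO pristane replicate 1 and Xcr1 in replicate 2.

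The 11 markers of inflammatory monocytes summed to 1749 FPKM with PBS, 4020 and 7715 FPKM in WT pristane, and 5643 and 4887 FPKM in the Irf8KO-labelled libraries, with none listed at 0. Few genes carried these sums. Chil3, a chitinase-like protein, stood at 88.9 and 3999.8 FPKM in WT pristane, and Hp, which encodes haptoglobin, stood with Fn1, fibronectin, at 1785 to 2887 FPKM in the Irf8KO-labelled libraries. The median log2 change of the 11 was 3.25 in WT pristane against PBS, with 3 higher and none lower. Between the pristane groups it was −2.78, with 0 of 11 past the threshold by limma and 8 at an unadjusted p under 0.05. Over all genes 5.18% were higher in WT pristane against PBS, and 20.6% had such an unadjusted p between the pristane groups. The monocyte antigen gene Ly6c2, chosen after its values were seen, stood at 2.51 FPKM with PBS, 145.2 and 295.9 FPKM in WT pristane, and 42.9 and 19.8 FPKM in the Irf8KO-labelled libraries. Hp and Fn1 went the other way between the pristane groups. In WT pristane Hp stood at 1278 and 687 FPKM and Fn1 at 1562 and 926 FPKM, below both Irf8KO-labelled libraries. The part of these cells in the Axl values was not tested.

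Tyro3, the TAM receptor better known from the nervous system, was listed at 0 in 4 libraries. Tyro3 stood at 0.139 FPKM in Irf8KO pristane replicate 2, about 2.07 fragments on the longest annotated transcript. A listed 0 may be a failed estimate in this kind of table, so no fold change is given.

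Within a library the makeup of TAM receptor RNA can be compared per transcript length, free of the scaling between libraries. Mertk made up 74.6% of the summed FPKM of the 3 receptors with PBS, 11.2% and 37.7% in WT pristane, and 88.3% and 89.3% in the Irf8KO-labelled libraries. Axl exceeded Mertk in both WT pristane libraries, at 7.96 and 1.65 times Mertk, while Mertk exceeded Axl 2.93-fold with PBS and 7.57-fold and 9.17-fold in the Irf8KO-labelled libraries. The log2 ratio of Axl to Mertk differed by −4.92 between the pristane groups, Irf8KO minus WT, with an exact 2-sided permutation p of 0.333. With 2 libraries against 2 that is the smallest p the test can give.

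**Figure D4:**
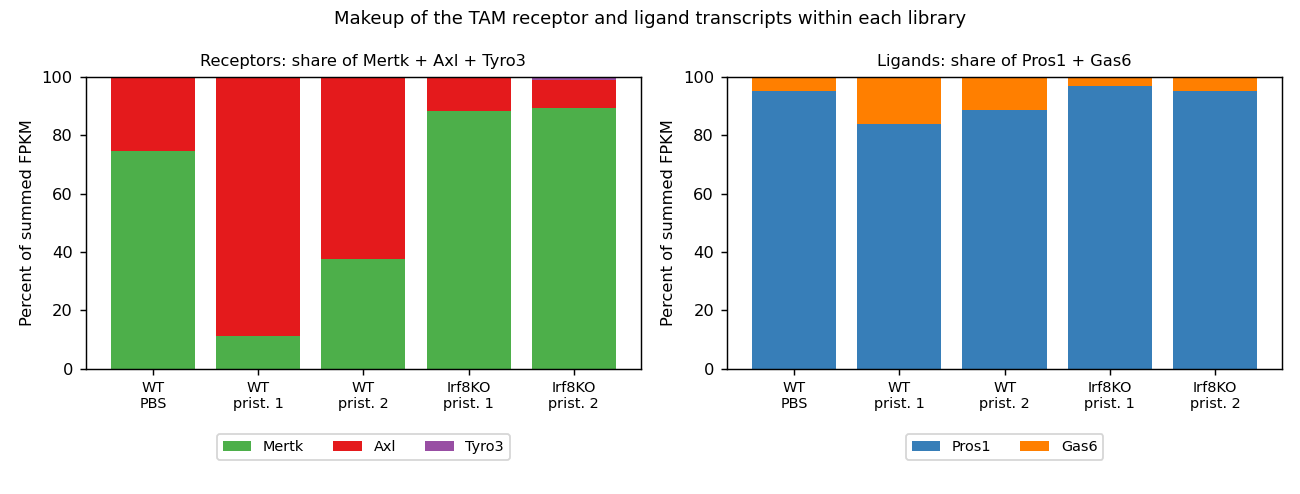
Percent of the summed FPKM of Mertk, Axl and Tyro3 (left) and of Pros1 and Gas6 (right) in each of the 5 libraries, drawn as stacked bars. Axl takes 88.8% and 62.3% of the receptor sum in WT pristane and 9.74% to 25.4% elsewhere, and Pros1 takes 83.8% or more of the ligand sum in every library.

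Of the TAM ligands, Pros1, which encodes the anticoagulant cofactor protein S, was the abundant one. Pros1 stood at 37.3 FPKM with PBS, at 8.54 and 13.02 FPKM in WT pristane, and at 33.9 and 50.1 FPKM in the Irf8KO-labelled libraries. The WT pristane libraries lay below the other 3, and the Irf8KO-labelled libraries lay on both sides of the PBS library. In WT pristane against PBS the log2 change was −1.73 ± 0.38 (SE; interval −2.79 to −0.66; limma adjusted p = 0.067), a 3.46-fold difference of mean FPKM. For Irf8KO against WT pristane it was 1.87 ± 0.31 (interval 1.00 to 2.74; adjusted p = 0.109), a 3.90-fold difference. Neither passed over all genes tested, but when only genes with a mean of at least 5 FPKM were tested the adjusted p was 0.0358 and 0.0444. Against PBS the Irf8KO-labelled libraries differed by 0.14 ± 0.38 (interval −0.92 to 1.21; adjusted p = 0.820), a sign that turned to −0.18 with quantile normalization. WT pristane was lowest in Pros1 and in the large peritoneal macrophage marker sum given above, whose part in the Pros1 values was not tested.

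Gas6, the other TAM ligand and the one that binds all 3 receptors, was low throughout. Gas6 stood at 1.90 FPKM with PBS, 1.65 and 1.64 FPKM in WT pristane, and 1.01 and 2.48 FPKM in the Irf8KO-labelled libraries, about 11.1 to 21.0 fragments each. The libraries labelled Irf8KO spanned all the others. The log2 difference between the pristane groups was 0.00 ± 0.33 (SE), with an interval from −0.91 to 0.91, and its sign turned with the scaling. Pros1 exceeded Gas6 19.7-fold with PBS, 5.17-fold and 7.95-fold in WT pristane, and 33.5-fold and 20.2-fold in the Irf8KO-labelled libraries. The log2 ratio of Pros1 to Gas6 differed by 2.02 between the pristane groups, Irf8KO minus WT (exact 2-sided permutation p = 0.333, the smallest possible).

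Mfge8, unlike the TAM ligands, had its highest values in both Irf8KO-labelled libraries, though no comparison passed. Mfge8 stood at 11.01 FPKM with PBS, at 6.02 and 19.8 FPKM in WT pristane, and at 27.6 and 31.7 FPKM in the Irf8KO-labelled libraries. The libraries labelled Irf8KO lay above the other 3, and the WT pristane libraries lay on both sides of the PBS library. In WT pristane against PBS the log2 change was 0.01 ± 0.71 (SE; interval −1.97 to 1.98; limma adjusted p = 1), being 0.79 without replicate 1, −0.78 without replicate 2 and −0.08 with quantile normalization. Irf8KO against WT pristane gave 1.34 ± 0.58 (interval −0.27 to 2.95; adjusted p = 0.301). That value was 0.56 without WT pristane replicate 1 and 2.12 without replicate 2. Those replicates also differed in sex pattern, as given above. Against PBS the Irf8KO-labelled libraries differed by 1.35 ± 0.71 (interval −0.63 to 3.32; adjusted p = 0.262).

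Markers of stromal cells and platelets, cells that can also make bridging ligands, were set beside these values. The 10 fibroblast and mesothelial markers were all listed at 0 with PBS and summed to 56.7 and 47.2 FPKM in WT pristane and 25.6 and 79.5 FPKM in the Irf8KO-labelled libraries. Of those, Wt1 was listed at 0 in WT pristane replicate 2 and none in the other pristane libraries. Their part in the ligand values was not tested. Among 5 platelet markers Pf4 held nearly the whole sum, which was 1118 FPKM with PBS and 34.6 to 204.6 FPKM with pristane. Gp9 was listed at 0 in all 5 libraries. With PBS Ppbp and Itga2b were also listed at 0, and Gp1bb stood at 0.258 FPKM. Platelet markers were likewise not tested for a part in the ligand values.

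Ranked by FPKM, a measure per length, Pros1 led with PBS and in both Irf8KO-labelled libraries, and in neither WT pristane library. With PBS the order was Pros1, Timd4, Mfge8, Mertk, Stab1, Axl and Gas6, from 1 library. In both libraries labelled Irf8KO it was Pros1, Mfge8, Mertk and Stab1, and none of these neighbours overlapped, while Axl and Gas6 behind them did. In WT pristane replicate 1 Axl led with 63.1% of the summed FPKM of the 8 members, and in replicate 2 Mfge8 led with 29.2%. In that group the ranges of Axl, Stab1, Pros1 and Mfge8 did not all separate: Axl and Mfge8 overlapped each other and Pros1, Stab1 lay inside both their ranges, and only Stab1 and Pros1 stood apart. The sum over the 8 members ran from 67.9 to 107 FPKM per library without ordering the groups.

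Genes whose profile over the 5 libraries lay nearest to a member were sought among 3919 genes with a mean of at least 10 FPKM, by Euclidean distance of centred log2 values. With 5 libraries such likeness is a description only. Nearest to Timd4 were Blk, which is among the B cell markers given above, Ikzf3 and Cd2, at distances of 0.95 to 0.98. Nearest to Axl were Aif1 (1.10), Slfn4 (1.65) and Igf1 (1.73). Aif1 stood at 4.33 FPKM with PBS, 74.4 and 35.0 FPKM in WT pristane, and 3.93 and 2.78 FPKM in the Irf8KO-labelled libraries. Nearest to Pros1 were Glul (0.28), Emr1 (0.56), which encodes a macrophage surface antigen and is among the 14 resident markers, and Hmgn1 (0.58). Nearest to Mfge8 were Ms4a8a (0.34), Thbs1 (0.44) and Alg14 (0.56), and nearest to Stab1 were Capg (0.16), Cln3 (0.19) and Slc3a2 (0.22). Mertk lay nearest to Sympk (0.082), Ndufs7 and Tor1b, and Gas6 to Timm10 (0.18), Ddb1 and Dnajc24. The small distances of Mertk and Gas6 go with the small range of those genes.

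Other genes of dying cell uptake were followed in 8 lists of 108 genes, all listed in the table, of which 96 were tested. The lists were chosen with earlier results of these data known, so the shares below are a description and test no enrichment. Of the genes counted as higher, Itgb5, Olr1, Sphk1 and Pparg lay under 1 FPKM with PBS. They met the filter only through pristane libraries, and such genes can rise but hardly fall against PBS. After pristane in WT mice 18 rose and 3 fell by limma, 21.9% of those tested beside the 10.6% of all genes given above, with a median log2 change of 0.65 against −0.07 over all genes. Against PBS the Irf8KO-labelled libraries had 11 higher and 2 lower (13.5%, beside 8.54% of all genes) and a median of 0.58 against −0.05. Between the pristane groups 0 of 96 passed by limma, beside 0.027% of all genes. There 35 of 96 had an unadjusted p under 0.05, beside 20.6%, and the median was −0.09 against −0.0018 over all genes.

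**Figure D5:**
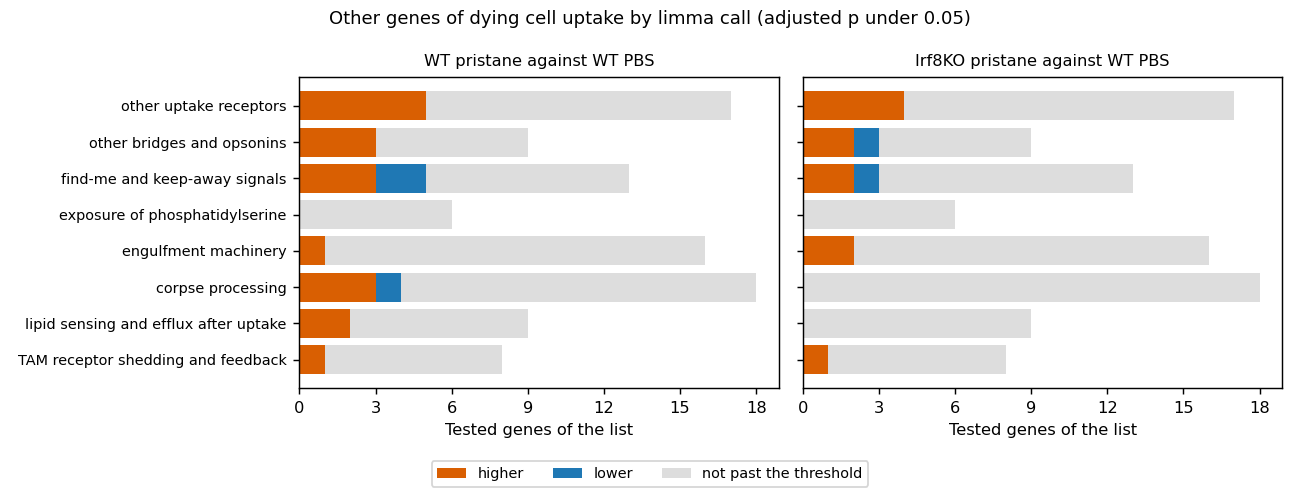
Number of tested genes in 8 lists of dying cell uptake (horizontal axes) that were higher, lower or not past the limma threshold against PBS, for WT pristane (left) and Irf8KO pristane (right). Uptake receptors have 5 of 17 higher on the left and 4 of 17 on the right, and none lower. Of all genes tested, 5.18% and 3.81% were higher.

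Among 17 further uptake receptors, 5 rose after pristane in WT and none fell, beside 5.18% and 5.46% of all genes. Siglec1, the sialic acid receptor of macrophages also known as CD169, stood at 2.90 FPKM with PBS, 53.7 and 36.7 FPKM in WT pristane, and 8.66 and 11.5 FPKM in the Irf8KO-labelled libraries. It rose by 3.54 ± 0.34 (SE) on the log2 scale in WT pristane (adjusted p = 0.0267), and between the pristane groups its log2 difference was −2.05 ± 0.28 (adjusted p = 0.0875). The oxidized lipid receptor Olr1 rose by 4.25, the lipid sensor Trem2 by 4.03, and Itgb5, the integrin chain through which Mfge8 can act, by 3.21. In the Irf8KO-labelled libraries against PBS these 3 rose by 3.91, 3.21 and 2.96, and Cd300ld, of a family of lipid-binding receptors, by 2.19. Olr1 and Itgb5 stood at 0.963 and 0.661 FPKM with PBS and met the filter only through pristane libraries, which favoured a rise. Marco, a scavenger receptor, stood at 107 FPKM with PBS, 18.7 and 0.934 FPKM in WT pristane, and 199 and 215 FPKM in the Irf8KO-labelled libraries. Its log2 difference between the pristane groups was 5.07 ± 1.20 (adjusted p = 0.154).

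Of 9 other bridges and opsonins, 3 rose in WT pristane against PBS, beside 5.18% of all genes. Anxa1, which encodes the pro-resolving protein annexin A1, rose by 2.84 on the log2 scale, the phosphatidylserine-binding annexin Anxa5 by 2.97 and complement C3 by 2.13. Anxa1 and C3 also rose in the Irf8KO-labelled libraries against PBS, by 2.75 and 2.79. C1qa, a chain of the complement component C1q that coats dying cells, stood at 1012 FPKM with PBS, 383 and 287 FPKM in WT pristane, and 19.8 and 41.8 FPKM in the Irf8KO-labelled libraries. It fell by 5.08 on the log2 scale in the Irf8KO-labelled libraries against PBS (limma adjusted p = 0.0318), and differed by −3.48 ± 0.42 (SE) between the pristane groups (adjusted p = 0.0747). C1qb and C1qc, the other chains of C1q, passed in no comparison. Apoe, the lipid carrier, was the most abundant of these at 6515 FPKM with PBS and 917 to 3125 FPKM in the pristane libraries. Thbs1, which encodes the bridging protein thrombospondin-1, stood at 524 FPKM with PBS, 259 and 772 FPKM in WT pristane, and 819 and 1121 FPKM in the Irf8KO-labelled libraries, and passed in no comparison.

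Signals that attract phagocytes or hold them off had 3 higher and 2 lower of 13 in WT pristane. Of all genes 5.18% were higher and 5.46% lower. P2ry6, a receptor for nucleotides released by dying cells, rose from 2.71 FPKM to 71.1 and 67.8 FPKM, a log2 change of 4.25 (adjusted p = 0.0247). Sirpa, the receptor for the "don't eat me" protein Cd47, rose by 2.28. Cd47 itself stood at 211 FPKM with PBS and 154 to 238 FPKM in the pristane libraries. Cd24a, another such signal, stood at 167 FPKM with PBS, 147 and 194 FPKM in WT pristane, and 382 and 438 FPKM in the Irf8KO-labelled libraries, and passed in no comparison (adjusted p of 0.0619 for Irf8KO pristane against PBS). Pecam1, an adhesion molecule that can help viable cells detach from phagocytes, fell by 2.67 on the log2 scale, and Siglecg, a sialic acid receptor of B cells, had a change of −3.82. P2ry6, Sirpa and Siglecg had changes of 3.42, 1.87 and −3.83 in the Irf8KO-labelled libraries against PBS, all past the threshold.

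Of the genes of engulfment 1 of 16 passed in WT pristane, and of those of corpse processing 4 of 18. Of all genes 10.6% passed there. The GTPase Rac1, which drives the phagocytic cup, was the only one of 16 engulfment genes to rise in WT pristane (log2 change 1.36), and Rac1 (1.33) and its upstream GTPase Rhog (2.10) rose in the Irf8KO-labelled libraries against PBS. Of 18 corpse processing genes, the phagosome GTPases Rab5a (1.41) and Rab7 (1.41) and the lysosomal nuclease Dnase2a (1.11) rose in WT pristane. The gene listed as 1700021K19Rik, an older name of Rubcn, whose product is needed for LC3-associated phagocytosis, fell by 2.34 on the log2 scale. In the Irf8KO-labelled libraries 0 of these 18 passed against PBS by limma, with 9 at an unadjusted p under 0.05. Over all genes these shares were 8.54% and 33.7%. Of the 6 genes for exposure of phosphatidylserine 0 passed in either comparison with PBS, with 2 and 0 at an unadjusted p under 0.05. Such an unadjusted p was held by 33.8% and 33.7% of all genes. The most abundant genes of these lists passed in no comparison unless named above. The GTPases Rhoa and Cdc42 stood at 292 and 331 FPKM with PBS and at 587 to 703 and 534 to 561 FPKM with pristane. The lysosomal membrane protein gene Lamp2 stood at 172 FPKM with PBS and 327 to 487 FPKM with pristane. The scramblase gene Ano6 and the flippase subunit gene Tmem30a stood at 19.9 and 28.8 FPKM with PBS and at 18.9 to 54.2 and 34.7 to 46.4 FPKM with pristane.

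The lipid-sensing nuclear receptors Nr1h3 and Pparg, known for sensing sterols and fatty acids from engulfed cells, rose in WT pristane, 2 of 9 genes of that list. Of all genes 5.18% rose. Nr1h3, which encodes liver X receptor alpha, stood at 1.06 FPKM with PBS, 35.8 and 16.6 FPKM in WT pristane, and 7.20 and 6.74 FPKM in the Irf8KO-labelled libraries. In the PBS library Pparg was listed at 0, so no fold is given, against 5.86 and 5.88 FPKM in WT pristane and 0.926 and 0.530 FPKM in the Irf8KO-labelled libraries. Pparg met the filter of at least 1 FPKM only through WT pristane, so the filter fixed the direction of its rise. Adam10, a protease that can shed surface receptors, was the only one of 8 genes of TAM shedding and feedback to pass, rising by 1.26 in WT pristane and 1.19 in the Irf8KO-labelled libraries against PBS. Of all genes 10.6% and 8.54% passed in these comparisons. The most abundant genes of the last lists passed in no comparison. Ucp2, a mitochondrial carrier, stood at 258 FPKM with PBS and 305 to 500.1 FPKM with pristane, and Nr1h2, liver X receptor beta, at 12.8 FPKM and 13.3 to 23.2 FPKM. Socs3, a feedback inhibitor of cytokine signalling, stood at 88.9 FPKM and 90.2 to 194.8 FPKM, and Ifnar2, an interferon receptor chain, at 70.9 FPKM and 65.3 to 198.9 FPKM.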

How the data were processed

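RNA of 5 libraries was measured, and the authors deposited 1 table of 22815 symbols (27 of them in the form of dates, which are not named) whose FPKM values are normalized to transcript length and depth. It is named a count table, but its values are not whole numbers. Tools listed in the submitters' processing notes are Cufflinks 2.2.1, Cuffnorm, TopHat2 2.0.10 and BWA. For the build, the annotation and any scaling between libraries, nothing is given in the sources used here. Columns were matched to samples by title.

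Fragments were estimated from values under 0.3 FPKM of genes with 1 GENCODE M21 transcript, 1000 bp or longer. Of the products of value and length that rounded to 1 or 2 fragments, 66.7% to 81.4% lay within 0.15 of the whole number. The 11117 genes reaching 1 FPKM in any library were fitted together by limma 3.58.1 (limma-trend, R 4.3.3) on log2(FPKM + 1), with 3 group means, 2 residual and 1.99 prior degrees of freedom. P-values are 2-sided and Benjamini-Hochberg adjusted over all genes tested. Fold changes are on the log2(FPKM + 1) scale, which understates changes of low genes. The code was tested on simulated data.

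The 8 members and all gene lists were chosen with earlier results of these data known. Named were all members, and from each uptake list up to 4 genes per comparison with the smallest p past the threshold and the 2 with the highest level. Promoters are from RefSeq (GRCm38.p6), in which all 8 members matched. A marker of the general macrophage list is not reported here, and the 5 other genes were used after the data were seen.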

Additional observations from a re-analysis of the deposited data

How the results depend on the processing

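Log2 changes of the 7 tested members in 3 comparisons were recomputed under other settings, giving 235 values. Of these, 205 kept their direction and side of the threshold, 16 lost the threshold, 2 gained it and 12 changed sign. Only a called change can lose the threshold. All 16 losses fell on Timd4 in both comparisons with PBS and on Stab1 in WT pristane against PBS. Most of the 205 were changes that passed in neither fit, and some settings cannot alter a log2 change at all. Of the members past the threshold in WT pristane against PBS, 1 passed with a pseudocount of 0.1 and 0 when only those groups were fitted. In Irf8KO pristane against PBS 0 passed when only those groups were fitted. Without any 1 of the pristane libraries, 0 to 0 members passed in each comparison. Between the pristane groups 1 member, Pros1, passed when genes needed a mean of at least 5 FPKM. With a replicate block on the 4 pristane libraries 0 members passed, as without it, with 4 of 7 at an unadjusted p under 0.05, beside 2085 of all 11117 genes. The same-numbered libraries' deviations correlated at 0.045 over genes, and nothing in the labels pairs them. Over all genes, 105 higher and 137 lower passed between the pristane groups with that mean, against 3 in the fit reported and 0 with no filter, a pseudocount of 0.1 or the block. The sign changes touched no called value. Gas6 turned to 0.12 and 0.13 with quantile normalization in WT and Irf8KO pristane against PBS, and between the pristane groups to −0.043 with a pseudocount of 0.1 and −0.0025 with median ratio scaling. Mfge8 in WT pristane against PBS turned to −0.010 with a pseudocount of 0.1 and −0.082 with quantile normalization. Pros1 in Irf8KO pristane against PBS turned to −0.18 with quantile normalization. With 1 library left out, Mfge8 in WT pristane against PBS ran from −0.78 to 0.79, Gas6 from −0.39 to 0.39 between the pristane groups and from −0.53 to 0.26 in Irf8KO pristane against PBS, and Pros1 there from −0.13 to 0.42. The cause was not tested.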

Other observations

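In the uptake lists 2 genes outside the naming rule were past the limma threshold in WT pristane against PBS and were chosen after their values were seen. Cd300lf, a lipid-binding receptor on myeloid cells, stood at 5.86 FPKM with PBS, 57.7 and 142.7 FPKM in WT pristane, and 44.0 and 35.8 FPKM in the Irf8KO-labelled libraries. Its log2 change in WT pristane was 3.74 ± 0.60 (SE; adjusted p = 0.0423). Sphk1, the kinase that makes the attractant sphingosine-1-phosphate, was listed at 0 in the PBS library, against 8.75 and 21.7 FPKM in WT pristane and 3.32 and 4.07 FPKM in the Irf8KO-labelled libraries (adjusted p = 0.0392 in WT pristane, with no fold given). Sphk1 met the filter only through pristane libraries, so it could not fall against PBS.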
